A study of Homo sapiens with 8 samples.

Results

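The genes described are 10 secreted signals of inflammation, the CC chemokines CCL2, CCL7, CCL3, CCL4 and CCL5, the CXC chemokines CXCL8, CXCL1, CXCL2 and CXCL3, and the cytokine IL1B. They were chosen by name, 10 of 20163 protein-coding genes on hg19, and the rule uses no measured value, although earlier results of these data were known when it was written. The cells were HL-60, an established human leukemia line from peripheral blood, so all samples are 1 line and no donor-to-donor spread was measured. The ATRA group was given 1 µM all-trans retinoic acid for 4 days, and the control group an equal volume of ethanol, the solvent, for the same time. Each group had 2 ChIP-seq libraries of H3K4me3 and 2 of H3K27ac, 8 libraries in all. The values are the positions of broad peaks called in each library, without reads, so the depth behind a peak is unknown.

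Chemokines are small secreted proteins that draw leukocytes along a gradient through G protein-coupled receptors. CC chemokines such as CCL2 and CCL5 act mostly on monocytes and lymphocytes, and the CXC chemokines CXCL8 and CXCL1 to CXCL3 act mostly on neutrophils. Their genes lie in clusters of close relatives, on chromosome 17 and on chromosome 4, and IL1B lies in the IL1 cluster on chromosome 2. Many of them are classic targets of the NF-kB transcription factors, which bind short GGAATTTCC-like sites near the start of the gene. H3K4me3 sits mainly at promoters, and H3K27ac at active promoters and enhancers.

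The 200 bases before the annotated transcription start site (TSS) are shown for 5 genes on which the comparison turns. CXCL8 and IL1B are among those whose TSS lay under H3K27ac in both ATRA libraries and in neither control library. CXCL1, CXCL2 and CXCL3 are the close relatives of CXCL8 whose TSS lay under H3K27ac in none of the 4 libraries. All were read 5′ to 3′ on the strand of the gene from GRCh37, the assembly that hg19 also names, and end at the base before the TSS. Capitals mark matches, on either strand, to the words GGACTTTCC, GGAATTTCC and GGAATTCCC of NF-kB, to CCAAT, to TATAAA and to the AP-1 word TGACTCA. The stretches lie at chr4:74606036-74606235 (plus strand) for CXCL8, chr2:113594394-113594593 (minus) for IL1B, chr4:74734910-74735109 (plus) for CXCL1, chr4:74964914-74965113 (minus) for CXCL2 and chr4:74904525-74904724 (minus) for CXCL3.
CXCL8: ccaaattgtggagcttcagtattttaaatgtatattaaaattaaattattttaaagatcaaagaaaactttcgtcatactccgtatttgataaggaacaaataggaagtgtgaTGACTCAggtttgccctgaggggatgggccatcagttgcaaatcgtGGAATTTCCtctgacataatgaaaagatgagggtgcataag
IL1B: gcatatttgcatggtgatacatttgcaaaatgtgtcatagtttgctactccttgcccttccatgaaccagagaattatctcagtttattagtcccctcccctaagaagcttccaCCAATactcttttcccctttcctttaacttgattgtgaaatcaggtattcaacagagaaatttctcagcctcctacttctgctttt
CXCL1: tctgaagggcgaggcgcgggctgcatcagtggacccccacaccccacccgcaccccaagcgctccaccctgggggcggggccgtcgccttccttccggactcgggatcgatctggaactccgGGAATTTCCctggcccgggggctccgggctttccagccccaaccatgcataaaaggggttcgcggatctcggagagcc
CXCL2: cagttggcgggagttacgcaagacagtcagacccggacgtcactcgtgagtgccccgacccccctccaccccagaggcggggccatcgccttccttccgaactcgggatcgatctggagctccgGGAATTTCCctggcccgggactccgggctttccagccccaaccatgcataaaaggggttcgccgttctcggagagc
CXCL3: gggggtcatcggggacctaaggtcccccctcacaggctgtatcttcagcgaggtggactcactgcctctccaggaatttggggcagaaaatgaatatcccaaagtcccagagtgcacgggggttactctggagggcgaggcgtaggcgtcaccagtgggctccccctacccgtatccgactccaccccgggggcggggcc

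The word GGAATTTCC stood 41 bases before the annotated TSS of CXCL8, 78 bases before that of CXCL1 and 76 bases before that of CXCL2. CXCL3 had none in this stretch, but the word began 40 bases after its annotated TSS. CCL4 held it on the other strand, 83 bases before the TSS. Of 20140 promoters of protein-coding genes of the same length, 0.238% held GGAATTTCC on either strand, and 0.69% held at least 1 of the 3 NF-kB words. CXCL8 was the 1 gene of the 10 with TGACTCA in the 200 bases, 87 bases before the TSS, a word in 2.78% of all promoters. The word also began 58 bases after the TSS of CCL5 and 269 bases after that of CCL2. CCAAT was found before IL1B and CCL5 (29.2% of all promoters), and TATAAA before CCL7, CCL4 and CCL5 (8.12%). TATAAA also began 19 and 386 bases after the annotated TSS of CXCL8. The words do not overlap one another, except that TATAAA in CCL5 was matched on both strands within 1 run. The stretches of CXCL1 and CXCL2 were 77.2% identical over 215 aligned columns, the highest identity among these stretches of the 10 genes. The stretches were aligned as cut at each annotated TSS. With CXCL3, whose GGAATTTCC lay after its annotated TSS, identity was 49.8% for CXCL1 and 47.1% for CXCL2. A match gives letters only, and binding at any word was not tested. No word in CCL3 says only that these letters were absent from 200 bases.

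For each gene, the bases under peaks were summed over a window of the gene body plus 10 kb on each side, called its covered length. H3K27ac was higher, that is both ATRA libraries above both control libraries, at 7 of the 10 genes, CCL2, CCL7, CCL3, CCL4, CCL5, CXCL8 and IL1B. It was lower at 0. The ranges overlapped at CXCL1, and no library had a peak in the windows of CXCL2 and CXCL3. Across all 20163 genes the same rule called 30.2% higher and 2.85% lower, and it called 25.8% higher among the 5255 genes with a body of at most 10 kb, the size class of all 10. The median difference of ATRA minus control was 4927.8 bp, or 17.49% of the window, over the 10 genes, and 351.5 bp, or 0.52%, over all genes. The ATRA libraries of H3K27ac covered 1.825 times as much of the genome as the control libraries. With each value scaled to the covered length of its library, the shares over all genes were 12.8% higher and 18.5% lower, and 6 of the 10 genes were higher, CXCL8 being the one that left. With 2 libraries against 2, no exact two-sided permutation p can fall below 0.333, so none is given. No label says that replicates came from separate cultures.

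H3K4me3 was higher at 2 of the 10 genes, CCL2 and CXCL8, and lower at 1, CXCL3. The ranges overlapped at CCL4, CCL5, CXCL1 and IL1B, and CCL7, CCL3 and CXCL2 had no peak in any library. The background was 27.9% higher over all genes, 18.3% higher among genes with a body of at most 10 kb, and 2.63% lower over all genes, so the count of higher genes was near the background. Scaled to the covered length of the library, 11.0% of all genes were higher and 16.9% lower, while CCL2 and CXCL8 were again higher and CXCL3 lower. Without ATRA replicate 2 the count was 5, with CCL4, CCL5 and IL1B added, each of which had its larger value in ATRA replicate 1. The share over all genes without that library is not given here.

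**Figure D1:**
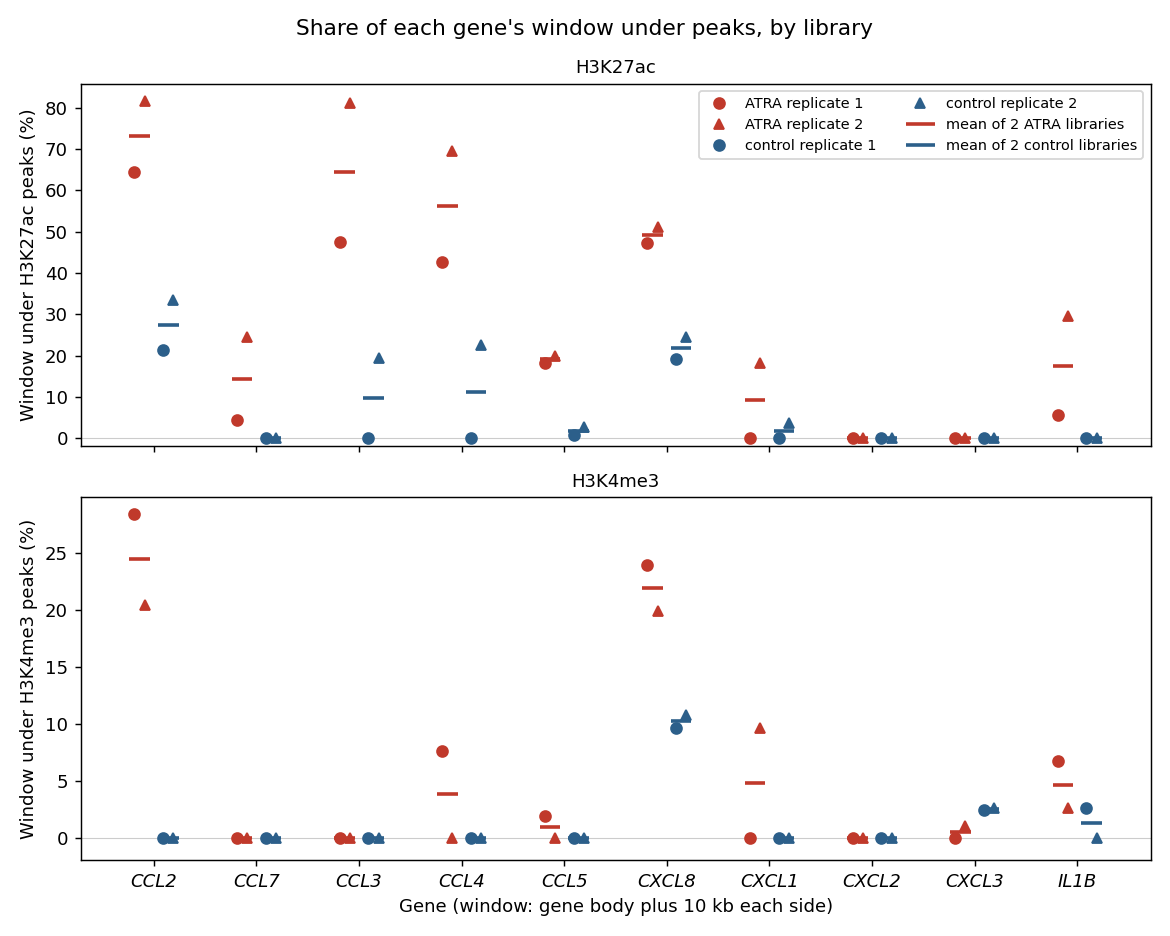
Share of the window (gene body plus 10 kb each side, in percent) under H3K27ac peaks (upper) and H3K4me3 peaks (lower) for the 10 genes. Each point is 1 library, circles replicate 1 and triangles replicate 2, and bars are the means of the 2 libraries of a group. For H3K27ac both ATRA points lie above both control points at 7 genes, among them CCL2 (64.4% and 81.7% against 21.4% and 33.4%) and CCL5 (18.2% and 19.9% against 0.686% and 2.68%).

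At the TSS itself, H3K27ac lay over CCL2, CXCL8 and IL1B in both ATRA libraries and in neither control library, 3 of 10 genes against 3.01% of all genes. No member showed the opposite pattern, which 0.402% of all genes showed. For H3K4me3, CCL2 was the 1 gene with its TSS under a peak in both ATRA libraries and neither control library (0.298% of all genes), and CXCL3 the 1 gene with the opposite pattern (0.124%). That pattern of CXCL3 was lost when peaks within 1 kb of the TSS were counted, with peaks of at least 1 kb and with equal numbers of peaks. CXCL8 had H3K4me3 over its TSS in all 4 libraries, and the other 7 in none. Of all 20163 genes, 9494 had it in all 4 libraries and 9729 in none. Among the 5255 genes with a body of at most 10 kb, the counts were 1775 and 3227. So the 3 genes with H3K27ac at the TSS only after ATRA had 3 different H3K4me3 patterns there, in ATRA only at CCL2, in all libraries at CXCL8 and in none at IL1B. At IL1B, however, a peak in ATRA replicate 1 began 132 bp after the TSS.

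CCL2, the main attractant of monocytes, lies at chr17:32582293-32584227 on the plus strand. In control cells a long H3K27ac peak already lay upstream of it, of 15811 bp in replicate 1 and 18201 bp in replicate 2, and ended 5302 and 4322 bp before the TSS. A second control peak in replicate 2, of 1637 bp, ended 1797 bp before the TSS. In ATRA-treated cells single peaks of 27901 and 31086 bp began 23771 and 27259 bp before the TSS and ran through the whole gene, to 4129 and 3826 bp after the TSS. The upstream domain was therefore present in all 4 libraries, and the gene itself was covered in the ATRA libraries only. In the window, H3K27ac covered 14130 and 17915 bp in ATRA and 4699 and 7316 bp in control, a difference of means of 10015 bp, or 3714.1 bp when scaled to the covered length of the library, with CCL2 still higher. H3K4me3 was found in the CCL2 window in ATRA only, as a peak over the TSS of 6044 bp in replicate 1 and 4502 bp in replicate 2. The nearest control peak of H3K4me3 was 123599 bp away in replicate 1 and 704610 bp away in replicate 2. The call of CCL2 was the same for both marks with the gene body alone, with peaks of at least 1 kb and with equal numbers of peaks per library.

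CCL7, a relative of CCL2 that also attracts monocytes, lies next to it at chr17:32597240-32599261 on the plus strand. Its window held 965 and 5365 bp of H3K27ac in ATRA and none in control. The peak of ATRA replicate 1 and the 5 peaks of replicate 2 shared no base, and 2 of those 5, of 2289 and 1799 bp, also lie in the window of CCL2. No library had H3K27ac over the gene body, and the call was lost with peaks of at least 1 kb. H3K4me3 was absent from the window in all libraries.

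CCL3 and CCL4, attractants of monocytes and T cells made by activated leukocytes, lie next to each other in opposite directions, CCL3 at chr17:34415602-34417515 on the minus strand and CCL4 at chr17:34431220-34433014 on the plus strand. H3K27ac covered 10402 and 17776 bp of the CCL3 window in ATRA, against 0 and 4222 bp in control. It covered 9307 and 15160 bp of the CCL4 window in ATRA, against 0 and 4896 bp in control. Both windows thus had no H3K27ac in control replicate 1 and broken coverage in the other 3 libraries, and they share peaks. At CCL3, the TSS lay under a peak of 3543 bp in ATRA replicate 2, while in ATRA replicate 1 the peak began 44 bp after it. The nearest control peaks were 46511 and 4670 bp away. Counting peaks within 1 kb of the TSS, CCL3 joined the genes with H3K27ac in both ATRA libraries and neither control library. At CCL4, the TSS was covered in ATRA replicate 2 and also in control replicate 2, by a peak of 2657 bp, and with the gene body alone its ranges overlapped. H3K4me3 was found near CCL4 in ATRA replicate 1 only, in a peak of 1657 bp that began 570 bp after the TSS, and not at CCL3. Of all 50-base words of the 2 windows, 20.2% at CCL3 and 21.2% at CCL4 occur elsewhere in GRCh37. Near-identical copies of both genes exist, and how reads with several matches were placed is not given in the sources used here. The annotated copies CCL3L3 and CCL4L2 had no peak and a peak of 200 bp in ATRA replicate 2, respectively.

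CCL5, which also attracts T cells and monocytes, lies at chr17:34198495-34207797 on the minus strand. H3K27ac covered 5344 and 5838 bp of its window in ATRA, and 201 and 785 bp in control. A stretch of 201 bp that ended 6 bp before the TSS was covered in all 4 libraries, and it was the whole of the H3K27ac in the window of control replicate 1. It is shown because it is the 1 part of the window marked in every H3K27ac library, at chr17:34207803-34208003 on GRCh37 and written on the minus strand, with the same words in capitals.
CCL5 shared stretch: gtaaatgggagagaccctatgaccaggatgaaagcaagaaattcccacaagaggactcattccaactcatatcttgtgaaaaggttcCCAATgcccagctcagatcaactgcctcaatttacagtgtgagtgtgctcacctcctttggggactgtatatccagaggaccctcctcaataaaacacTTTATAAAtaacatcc
Around it the ATRA peaks were 2881 and 3478 bp long and covered the TSS, as did the control peak of replicate 2, of 785 bp. With peaks of at least 1 kb both control peaks dropped out. With equal numbers of the longest peaks only that of control replicate 2 did, and the peak of control replicate 1 did not cover the TSS. In both settings CCL5 was counted with the genes covered at the TSS in ATRA only. A second ATRA domain of 11471 and 14086 bp had its near edge 8489 and 8588 bp upstream of the TSS, with most of it beyond the window. Within it, 909 and 924 bp were covered in all 4 libraries, and 2783 and 2246 bp in the 2 ATRA libraries only. H3K4me3 was found in the window in ATRA replicate 1 only, over 545 bp inside the gene.

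CXCL8, the neutrophil attractant interleukin 8, lies at chr4:74606236-74609433 on the plus strand. Its H3K4me3 was present at the TSS in both groups, in peaks of 2240 and 2509 bp in control and of 4621 and 4146 bp in ATRA, so that the ATRA peaks were longer in both replicates and extended on both sides. H3K27ac in control lay upstream, in peaks of 4458 and 5547 bp that ended 5581 and 5533 bp before the TSS, with 2 smaller peaks of 961 and 243 bp in replicate 2. In ATRA, single peaks of 13528 and 15062 bp ran from the same upstream region across the TSS, to 981 and 1878 bp inside the gene. CXCL8 thus resembled CCL2 in having upstream H3K27ac in all 4 libraries that reached the gene in the ATRA libraries only, and differed from it in its H3K4me3 in control. In the window, H3K27ac covered 10982 and 11879 bp in ATRA and 4420 and 5672 bp in control. Scaled to the covered length of the library, the difference was 1421.7 bp in place of 6384.5 bp, and the ranges overlapped.

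CXCL1, CXCL2 and CXCL3, which attract neutrophils through CXCR2, showed little of either mark. CXCL1, at chr4:74735110-74737025 on the plus strand, had H3K27ac in replicate 2 of each group only, 4009 bp beyond the gene end in ATRA and 816 bp upstream in control. It had H3K4me3 in ATRA replicate 2 only, over 2109 bp beyond the gene end. CXCL2, at chr4:74962757-74964913 on the minus strand, had no peak of either mark, and its nearest H3K27ac peak was between 41233 and 58216 bp away. CXCL3, at chr4:74902306-74904524 on the minus strand, had short H3K4me3 peaks over its TSS in both control libraries, of 531 and 573 bp. In ATRA replicate 1 it had none, and in replicate 2 a peak of 229 bp that ended 424 bp before the TSS. This was the 1 gene of the 10 with less of a mark after ATRA, on peaks short enough to be lost with a minimum length of 1 kb. With 50 kb on each side, H3K27ac was lower at CXCL2 and CXCL3, with differences of -700.0 and -945.5 bp in mean covered length, where control peaks lay upstream of CXCL3.

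IL1B, a fever-inducing cytokine made as a precursor, lies at chr2:113587328-113594393 on the minus strand. Its window had no H3K27ac in control, where the nearest peaks were 39000 and 38686 bp from the TSS. In ATRA replicate 1, peaks of 989 bp over the TSS and of 541 bp that ended 4089 bp before it gave 1530 bp, and in ATRA replicate 2 a peak of 6280 bp spanned both sites and a further peak of 1705 bp brought the sum to 7985 bp. IL1B thus had no upstream H3K27ac in control within its window, unlike CCL2 and CXCL8. Because both peaks of ATRA replicate 1 were under 1 kb, the calls of IL1B in the window and at the TSS were lost with peaks of at least 1 kb and with equal numbers of peaks. H3K4me3 covered 1810 and 700 bp in ATRA and 702 and 0 bp in control, and did not reach the TSS in any library. The nearest was a peak of 1465 bp in ATRA replicate 1 that began 132 bp after the TSS. The upstream site carried H3K4me3 in both ATRA libraries and in control replicate 1, in peaks of 345, 700 and 702 bp.

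**Figure D2:**
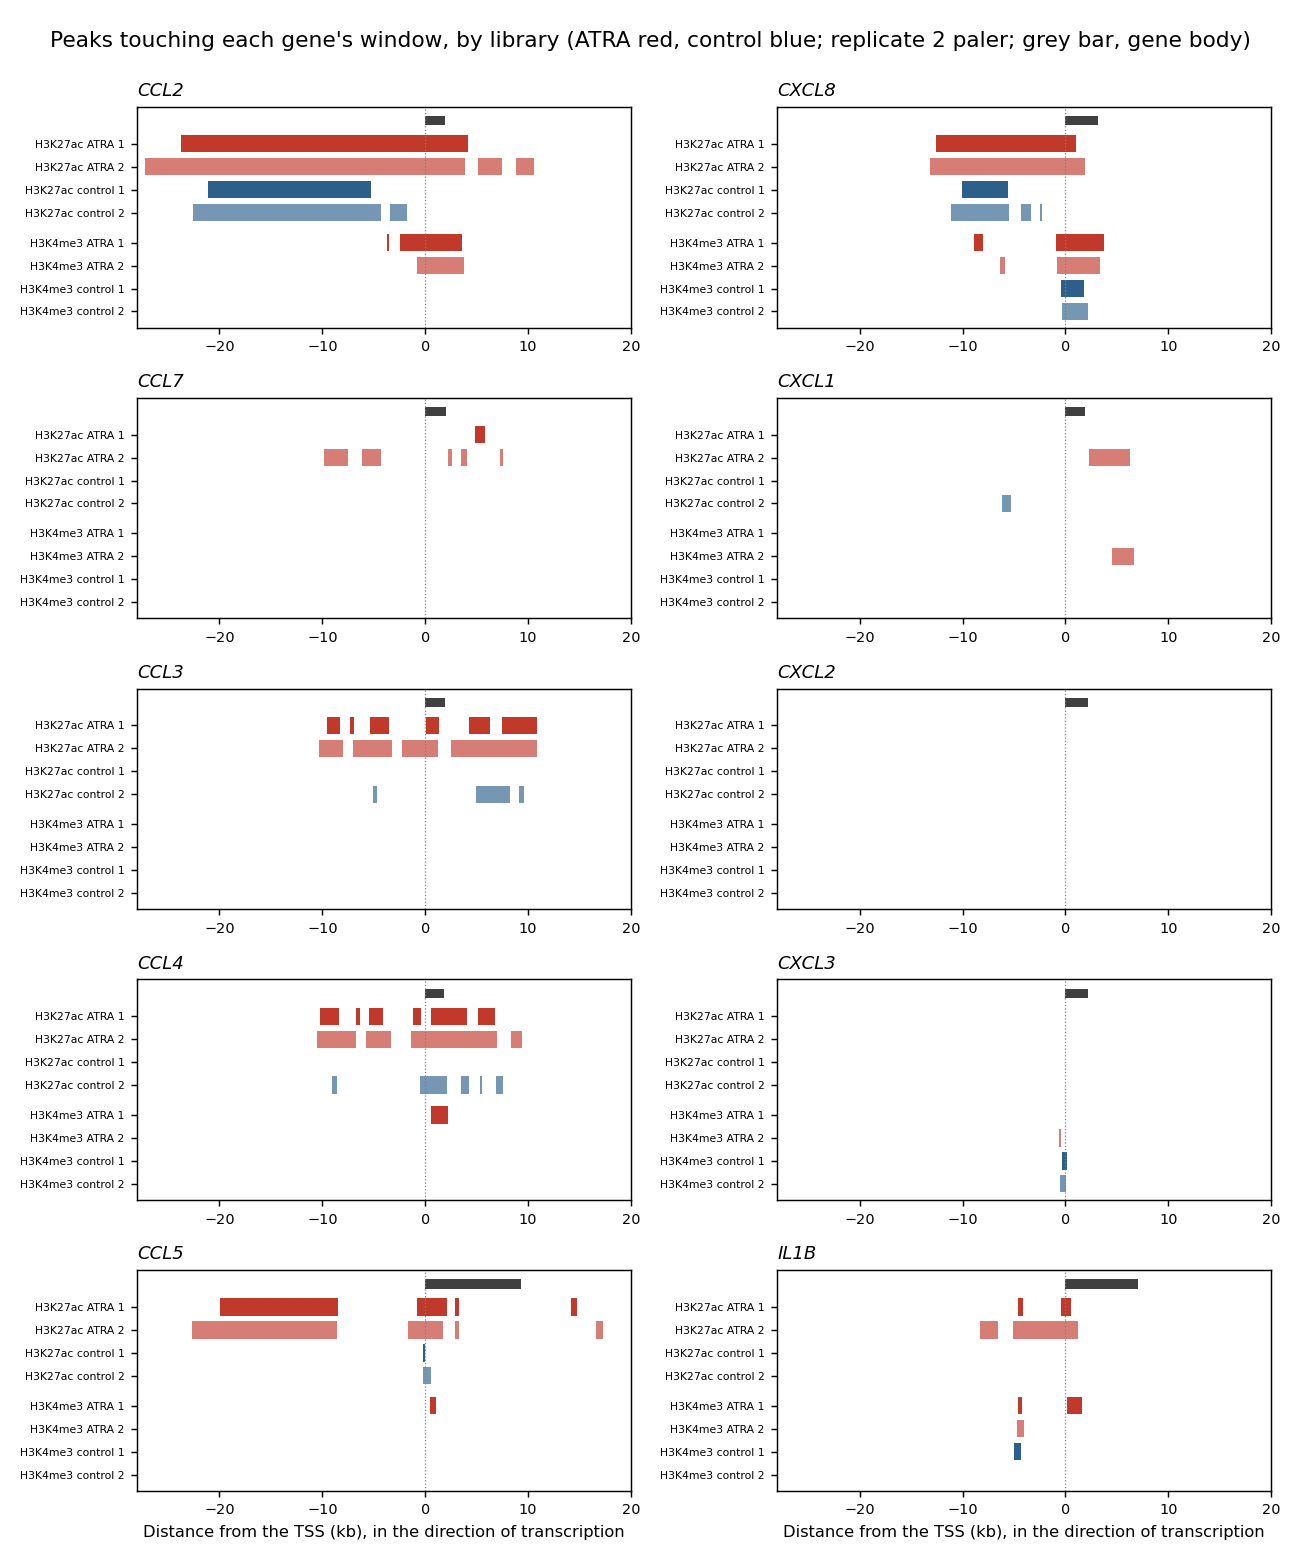
Every peak that touches the window of each of the 10 genes, drawn in kb from the TSS in the direction of transcription, with 1 row per library and the gene body as a grey bar. At CCL2 and CXCL8 the control H3K27ac peaks stop upstream of the TSS (the longest 5302 and 4322 bp before it at CCL2, 5581 and 5533 bp at CXCL8), while the ATRA peaks cross it.

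Across the loci, H3K27ac was higher at 3 of the 4. No share of comparable windows over the genome was computed for this count or for the sums of stretches below. The ATRA libraries of H3K27ac covered 1.825 times as much of the genome as the control libraries. The CCL2 locus, from 10 kb before CCL2 to 10 kb beyond CCL1 (chr17:32572293-32700252, 6 protein-coding genes), had 34346 and 44712 bp under H3K27ac in ATRA, against 6017 and 12032 bp in control. Stretches covered in both ATRA libraries and in neither control library summed to 19021 bp in 7 pieces, and no base was covered in both control libraries alone. The longest piece, of 6723 bp, held the TSS of CCL1 and touched CCL13, and the next, of 5623 bp, held CCL2. A piece of 2873 bp lay between genes, from 35145 to 38017 bp after the TSS of CCL7. In this locus H3K4me3 was found only at CCL2, in the ATRA libraries.

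The locus from CCL5 to CCL4 (chr17:34188495-34443014, 13 protein-coding genes) had 49251 and 57031 bp under H3K27ac in ATRA, against 2857 and 20336 bp in control, so that the control libraries stood far apart but below both ATRA libraries. Its stretches in both ATRA libraries and in neither control library summed to 21393 bp in 25 pieces, and the reverse to 130 bp in 1 piece. Most of the pieces lay around CCL5 or around CCL3 and CCL4, at the ends of the locus. H3K4me3 was sparse, 3811 and 0 bp in ATRA and 844 and 0 bp in control.

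In the CXCL locus (chr4:74596236-74974913, 10 protein-coding genes), H3K27ac covered 14520 and 28528 bp in ATRA and 4800 and 10223 bp in control. All 4 pieces covered in both ATRA libraries and in neither control library, 8436 bp in sum, lay around CXCL8, 3 of them upstream of or across it and 1, of 3126 bp, from 20827 to 23952 bp after it. The 1 piece of the reverse kind, of 380 bp, ended 18777 bp upstream of CXCL3. H3K4me3 covered 5570 and 6966 bp in ATRA and 2771 and 3082 bp in control.

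In the IL1 locus (chr2:113521502-113901593, 10 protein-coding genes), H3K27ac covered 17014 and 28899 bp in ATRA and 6688 and 17294 bp in control, and the ranges overlapped. The 6 pieces in both ATRA libraries only summed to 3138 bp, the longest 1157 bp between IL1A and IL1B and the next 989 bp over the TSS of IL1B. The 3 pieces in both control libraries only summed to 677 bp. IL1RN, the receptor antagonist of the family, held a piece of each kind, 153 bp in both ATRA libraries only and 397 bp in both control libraries only. H3K4me3 was higher, with 7257 and 5884 bp against 4816 and 2675 bp, of which 2675 bp in all 4 libraries lay at CKAP2L, a neighbor outside the family. Scaled to the covered length of the library, the differences of H3K27ac were 18021.4 bp at the CCL2 locus, 27625.6 bp at the CCL5-CCL4 locus, 5812.6 bp at the CXCL locus and 1317.9 bp at the IL1 locus.

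**Figure D3:**
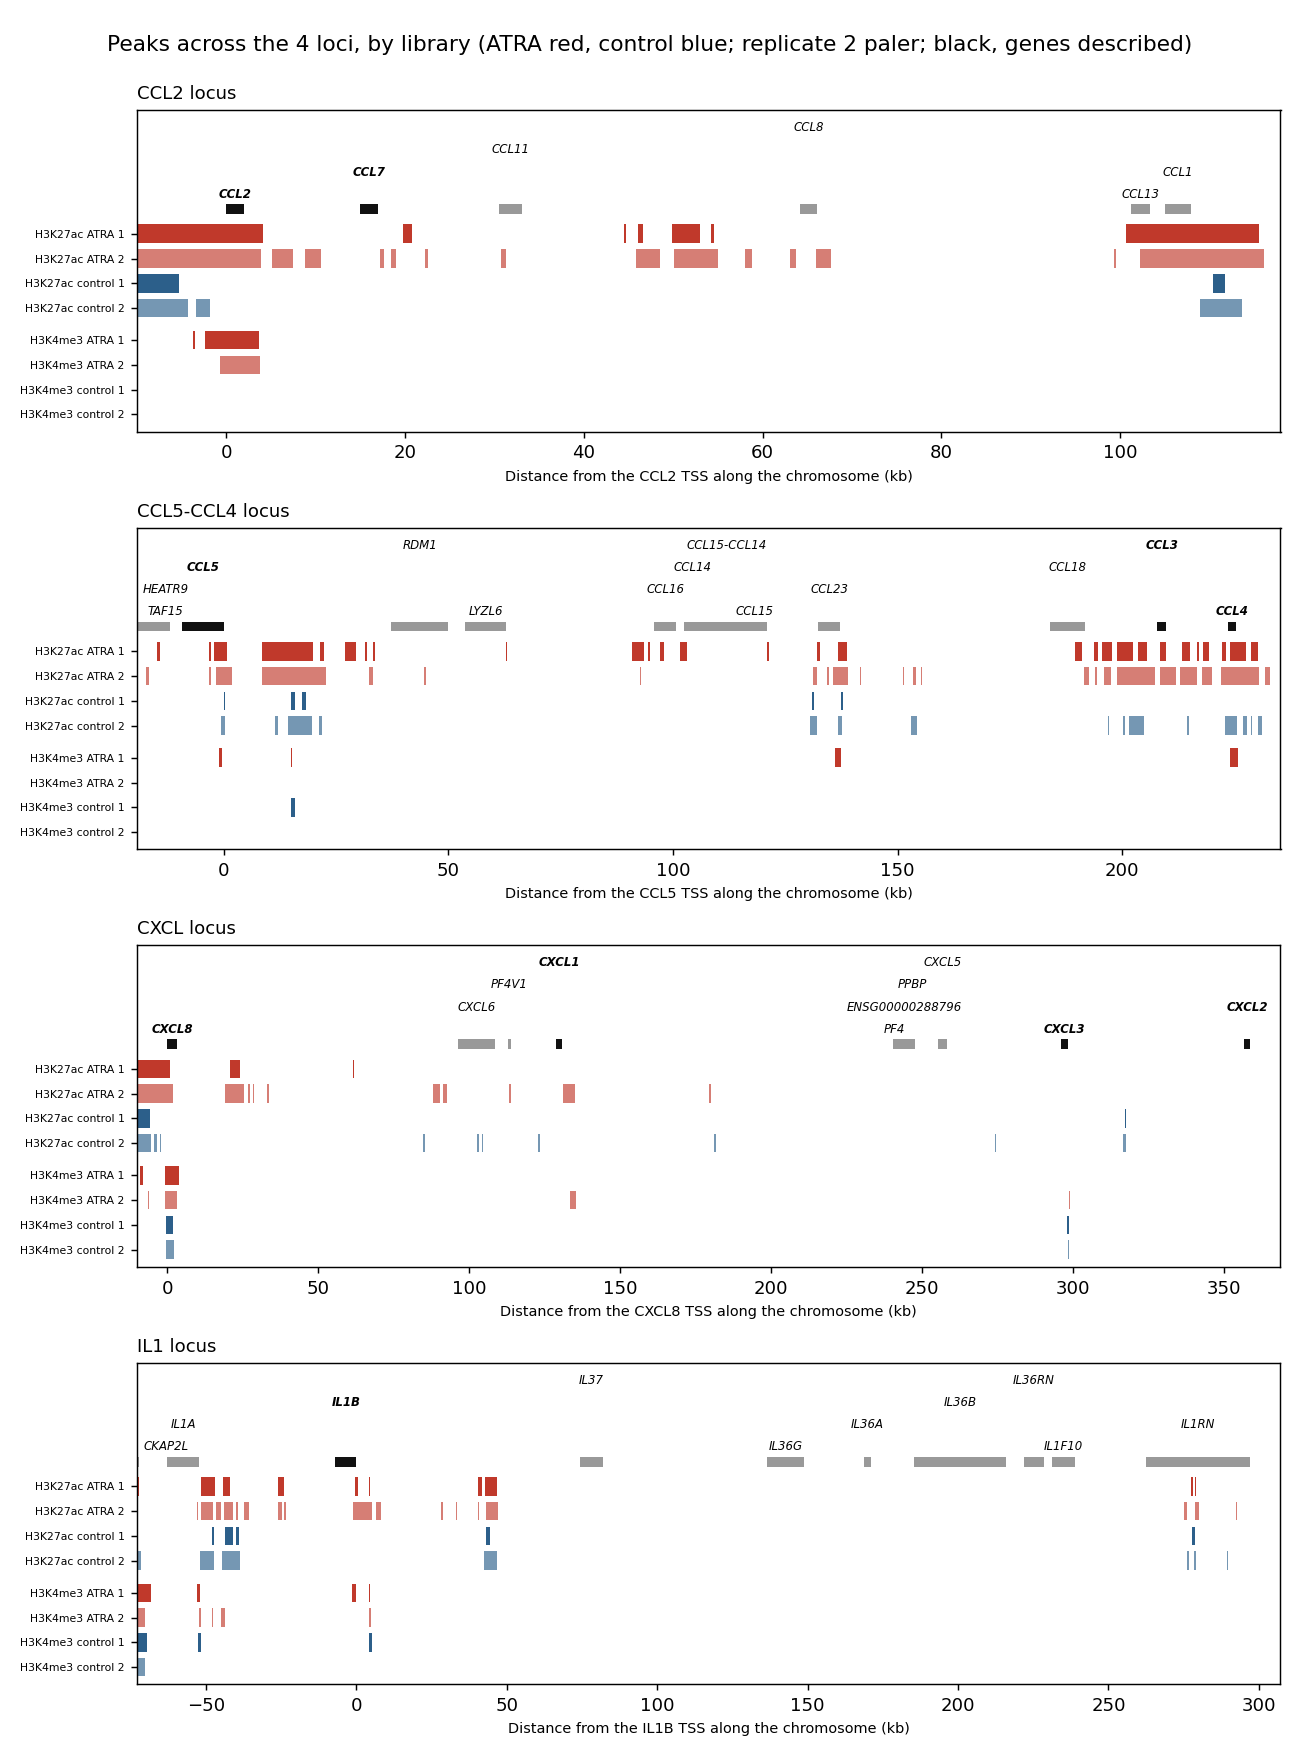
Peaks of the 8 libraries across the 4 loci, in kb from the TSS of 1 gene of each along the chromosome, with protein-coding genes drawn above and the 10 genes described in black. In the CXCL locus the ATRA-only H3K27ac shared by both replicates sits around CXCL8, while CXCL2 and CXCL3 have none.

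Of the other 37 chemokine genes, H3K27ac was higher at 15 and lower at 0, overlapped at 9 and was absent from the windows of 13, against the 30.2% of all genes called higher. The median difference was 340.0 bp, beside 351.5 bp over all genes and 0.0 bp over genes with a body of at most 10 kb. Their TSS lay under H3K27ac in both ATRA libraries and neither control library at 3 genes, CCL1, CCL22 and CCL26, against 3.01% of all genes. CCL26, an eosinophil attractant, had 13643 and 12789 bp in ATRA and none in control, and CCL22, an attractant of T cells, had 5779 and 4775 bp against 0 and 935 bp. CCL1, the last gene of the CCL2 locus, had 14940 and 14102 bp against 1318 and 4716 bp. CCL20 and CCL23 were covered at the TSS in both ATRA libraries and in control replicate 2. CCL13, CCL24 and CCL27 were covered there in ATRA replicate 1 only, and CXCL17 in ATRA replicate 2 only. H3K4me3 was higher at 6 of the 37 and lower at 0, no more than the background of 27.9% over all genes and 18.3% among genes with a body of at most 10 kb, with the TSS under a peak in any library at 3 genes. These were CCL20 (both ATRA libraries and control replicate 1), CCL23 and CCL27 (both in ATRA replicate 1 only). Several of the 37 genes with higher H3K27ac lie in the CCL2 locus or the CCL5-CCL4 locus. Some neighboring windows there share peaks, and such genes are not independent of one another or of the members.

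Among 14 genes of the IL-1 family and of IL1B maturation, H3K27ac was higher at 3 and lower at 0, no more than the 30.2% of all genes called higher. These were IL18, NLRP3 and PYCARD, a cytokine of the family and 2 parts of the inflammasome that activates CASP1. H3K4me3 was higher at 5 and lower at 0, beside the 27.9% of all genes, at the same 3 genes and at IL1A and CASP1, the protease that cuts the IL1B precursor. NLRP3 had 7320 and 10808 bp of H3K27ac in ATRA and 833 and 3845 bp in control. At the TSS, IL18 was the 1 gene of the 14 with H3K27ac in both ATRA libraries and neither control library, against 3.01% of all genes. IL18, NLRP3, PYCARD and CASP1 had H3K4me3 over the TSS in all 4 libraries, which no library showed for IL1B. IL1A was covered at the TSS by H3K4me3 in replicate 1 of each group only. Several of the 14 genes lie in the IL1 locus beside IL1B and are not independent of it.

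Among 13 genes of NF-kB factors and their regulators, H3K27ac was higher at 8 and lower at 0, against the 30.2% of all genes called higher. Neither this count nor that share was scaled to the covered length of the library, and the same holds for the lists above. The ATRA libraries of H3K27ac covered 1.825 times as much of the genome as the control libraries. H3K4me3 was higher at 5 and lower at 0, beside the 27.9% of all genes. The TSS of 11 lay under H3K4me3 in all 4 libraries and that of 6 under H3K27ac in all 4. Of the 10 chemokine and IL1B genes, 1 and 0 did. Of all 20163 genes, 9494 and 3610 did, and of the 5255 genes with a body of at most 10 kb, 1775 and 717. NFKBIE and TNFAIP3, which restrain NF-kB, and IKBKG, a subunit of the kinase that activates it, had H3K27ac over the TSS in both ATRA libraries and in neither control library, a pattern of 3.01% of all genes. RELB had 8930 and 6919 bp of H3K27ac in ATRA and 3818 and 4188 bp in control, and REL had 4317 and 5901 bp against 2765 and 3834 bp. NFKBIA, an inhibitor that NF-kB itself induces, had 3421 and 3734 bp against 1425 and 2074 bp. REL, NFKBIA, NFKBIE and IKBKB, another subunit of that kinase, were higher for both marks. RELA, RELB, NFKBIB and IKBKG were higher for H3K27ac only, and CHUK for H3K4me3 only. NFKB1, NFKB2 and TNFAIP3 overlapped for both marks. The TNFAIP3 window had 4238 and 9880 bp of H3K27ac in ATRA and 397 and 7915 bp in control.

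As a check of the cells, of 7 myeloid genes (SPI1, CEBPA, MPO, ELANE, AZU1, PRTN3, CD33), 4 had H3K4me3 over the TSS in all 4 libraries and 2 in none, and 2 had H3K27ac there in all 4 and 1 in none. SPI1 and MPO had both marks in all 4 libraries, and ELANE had neither in any. Of 5 genes of granulocyte maturation, CSF3R had both marks over the TSS in all 4 libraries, ITGAM and CD38 had both in the ATRA libraries only, and NCF1 and FPR1 had neither in any. The TSS of the monocyte genes CD14 and CSF1R lay under no peak of either mark. In their windows, H3K27ac covered 4546 and 5189 bp in ATRA and 441 and 1167 bp in control at CD14, and 22615 and 25795 bp against 12273 and 15631 bp at CSF1R. H3K4me3 covered 4757 and 4735 bp against 5390 and 5241 bp at CD14, and 1510 and 801 bp against 0 and 0 bp at CSF1R. Of the genes of other lineages, CD3E, GATA1, EPCAM, COL1A1 and ALB had H3K4me3 over the TSS in no library. H3K27ac lay over the TSS of CD3E in ATRA replicate 1 only. In the windows, H3K27ac was higher at COL1A1 (21720 and 7828 bp in ATRA against 0 and 885 bp in control). It was also higher at CD3E (7270 and 12073 bp against 0 and 584 bp). The ranges overlapped at GATA1 and EPCAM, and ALB had no peak. The window values of marker genes were not scaled to the covered length of the library. The number of H3K27ac peaks ran from 15457 in control replicate 1 to 39332 in ATRA replicate 2, and of H3K4me3 peaks from 13241 to 16487. For H3K27ac, replicate 2 had more covered bases than replicate 1 in both groups, as it had at 8 of the 10 genes' windows in ATRA. The part of these library differences in the results was not tested.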

How the data were processed

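The 10 genes, the gene lists and the loci were chosen with earlier results of these data known. The authors trimmed adapters, mapped the reads to hg19 (Bowtie), and ran the broad mode of MACS2 on every library by itself, with no fragment model. The submitters' processing notes for these samples also name cutadapt, with no role stated. Tool versions and the use of the input DNA in peak calling are not given in the sources used here. The authors deposited positions of each peak, which were used, and columns of fold enrichment and −log10 p, which hold values these measures cannot take and were not used. The deposited −log10 q values had a Spearman correlation of 0.061 to 0.191 between replicates over peaks matched one to one, against 0.544 to 0.944 for peak length, and were not used.

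Genes were the 20163 protein-coding genes of GENCODE release 44 mapped to GRCh37, with the TSS at the 5′ end of the gene. Peaks were joined to genes with a minimum overlap of 1 bp, and covered length is the number of bases under at least 1 peak in the gene body plus 10 kb each side. A gene was called higher where both ATRA values lay above both control values, and lower in the reverse case. Promoters were 200 bases before the TSS. A promoter and a marker gene are not reported here. The text names the 10 genes, and list genes whose TSS lay under a peak in at least 1 library. Values of list genes were added for CCL3L3 and CCL4L2 as copies of members. Scripts were tested on simulated peaks. Python 3.11.15, numpy 2.4.6, pandas 2.3.3, scipy 1.17.1 and matplotlib 3.10.9 were used. Alternatives were the window, the position of the TSS, a minimum peak length, equal numbers of the longest peaks, scaling to the covered length of the library, leaving out each library, and comparison within replicate numbers.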

Additional observations from a re-analysis of the deposited data

How the results depend on the processing

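The number of genes with higher H3K27ac was 7 and ran from 5 to 8 over all alternatives, with 5 for the gene body alone, for peaks of at least 1 kb and for equal numbers of the longest peaks (15457 per library), and 8 without ATRA replicate 1, where CXCL1 was added. Over all genes, 26.7% had higher H3K27ac with peaks of at least 1 kb and 22.7% with equal numbers of the longest peaks. CCL2, CCL3 and CCL5 were higher under each alternative. The number with higher H3K4me3 was 2, and 4 with 50 kb on each side of the gene, where CCL7 and IL1B were added. It ran from 2 to 5 with 1 library left out, the 5 coming without ATRA replicate 2. No share over all genes is given here for other windows, for a library left out, for the replicate block or for the TSS alternatives. Counts under those settings therefore have no background to be read against. The number of genes with H3K27ac at the TSS in ATRA only was 3, and 3 or 4 under each alternative, but for peaks of at least 1 kb and for equal numbers of peaks the 3 were CCL2, CXCL8 and CCL5 in place of IL1B. CCL3 was a further gene within 1 kb of the TSS or without ATRA replicate 1, and CCL5 without control replicate 2. That number for H3K4me3 was 1, CCL2, throughout. The lower H3K4me3 of CXCL3 was lost with peaks of at least 1 kb and with equal numbers of the longest peaks (13241 per library). No difference of a gene called higher or lower changed sign under any alternative run. The planned filter on −log10 q was not run, because that column was not usable.

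Libraries of both groups share the replicate numbers 1 and 2 in the labels, and no label says that a number marks a shared batch. The deposited peak names of same-numbered ATRA and control libraries share a tag whose meaning is not stated. Over 20163 gene windows, the deviations of same-numbered libraries from their group means correlated with Pearson's r = 0.255 in H3K4me3 and r = 0.633 in H3K27ac. With the replicate block, that is ATRA compared with control within each number, 7 genes had higher H3K27ac and 3 had higher H3K4me3, with IL1B added to CCL2 and CXCL8. With the block the counts at the TSS were 3 and 1. The H3K27ac of the IL1 locus, whose ranges overlapped, was higher in ATRA within each number, by 10326.0 and 11605.0 bp. Read depth is unknown, so a missing peak is not a missing mark, and a long peak is not a strong one.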
